A study of Arabidopsis thaliana with 6 samples.

Results

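The genes described here encode 7 bHLH (basic helix-loop-helix) transcription factors of light-regulated growth in Arabidopsis thaliana: PIF1 (AT2G20180), PIF3 (AT1G09530), PIF4 (AT2G43010), PIF5 (AT3G59060), PIF7 (AT5G61270), HFR1 (AT1G02340) and PIL1 (AT2G46970). They were taken by name, and a binding region was counted for a gene when its summit, the position of highest signal, lay inside the gene or within 3000 bp of it. By this rule 7 of the 1563 deposited regions belonged to 3 of the genes. PIF5 had 1 region in experiment 1, PIF4 had 1 and HFR1 had 2 in each of the 2 lists of experiment 2, and PIF1, PIF3, PIF7 and PIL1 had none. No gene of the 7 had a region in both experiments. The share of all protein-coding genes with overlapping regions in both, outside the untagged control, was 0.561%. In that control none of the 7 had a region, against 1.03% of all genes. With shares this small, these absences say little about the 7 genes.

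The regions come from ChIP-seq with an anti-HA antibody on chromatin of whole seedlings aged 15 days, from a cycle of 12 h light (70 µmol m-2 s-1) and 12 h dark. All samples were grown on Murashige and Skoog medium containing 2% sucrose and 0.8% agar. The HA-PRR7 plants were line 151, 1 transgenic line of the prr7-3 mutant in which the PRR7 promoter drives an HA-tagged PRR7, and the control was the prr7-3 mutant itself, with no tag, so that both lines carry the prr7-3 allele. HA-PRR7 has 1 immunoprecipitate (IP) in experiment 1 and 1 in experiment 2. The IP of experiment 2 has 2 deposited lists, KC and TL, which count as 1 replicate. The untagged control is the prr7-3 IP of experiment 1. Control tags and control signals, given below, are values within each list, and the sources used here do not name the library behind them. The sources used here give no hour of harvest and do not say whether plants were grown separately for each experiment.

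PIF proteins bind DNA at G-box and related E-box elements and drive growth of the stem in darkness, in shade and in warmth. Light-activated phytochromes bind most of them and trigger their breakdown, so they accumulate mainly in the dark. HFR1 and PIL1 are related proteins that form dimers with PIFs and restrain them, which sets a limit on growth in shade. The circadian clock times the transcription of PIF4 and PIF5, and PRR7 is a clock protein of the pseudo-response regulator family, known as a repressor of transcription that peaks in the daytime.

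HA-PRR7 in experiment 1 had a region at 1 of the 7 genes, PIF5, where 5.01% of the 27444 nuclear protein-coding genes had one by the same rule. In experiment 2, PIF4 and HFR1 had regions in KC (2 of 7, against 2.90% of all genes), in TL (2 of 7, against 2.71%) and so in both lists (2 of 7, against 2.34%). In the prr7-3 control 0 of 7 had a region, against 1.03% of all genes, which shows only that no region was called there. An experiment 1 region overlapping a region of each experiment 2 list and none of prr7-3 stood at 0 of 7 genes, against 0.561% of all genes. With 7 genes, picked with earlier results of these data known, these counts are a description and carry no test.

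PIF5 encodes a PIF that promotes elongation growth and is a close relative of PIF4. Its region lay on chromosome 3 from 21830269 to 21830763 (TAIR10), 495 bp wide where the median region of that list was 135 bp wide. The summit was inside the gene, 296 bp from the end with the higher coordinate. The region held 43 IP tags (exact Poisson interval at 95%, 31.1 to 57.9) and 22 control tags. The median region of the list held 10 IP tags, so PIF5 stood among the few well-covered regions of experiment 1. The IP signal at the summit was 33.5 against a control signal of 0.584, and the deposited fold enrichment, which divides the first by the second and counts a control signal under 1 as 1, was 33.5. This fold was the highest of 685 regions.

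PIF5 also ranked high in experiment 1 by the other measures, although none put it first. It ranked 4 by IP signal, 6 by tag enrichment, 21 by q value and 23 by IP tags, among nuclear and mitochondrial regions together. All these measures use the same IP reads, and the fold of PIF5 equals its IP signal, so the ranks are not separate support. Of the 23 regions with at least its 43 IP tags, 17 were mitochondrial and 6 nuclear. Tag enrichment, the deposited ratio of IP tags to the tags expected from background, was 11.3, with a counting interval of 8.20 to 15.3 carried over from the IP tags. The background that this ratio implies was 3.80 tags over the region. AT3G59070 also lies within 3000 bp of the summit, and PIF5 is the nearest gene.

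No region of experiment 2 lay near PIF5. The nearest summits were 355 kb away in KC and 497 kb away in TL. Of the 6 nuclear regions of experiment 1 with at least 43 IP tags, 4 overlapped a region of each experiment 2 list: those between PSI-P and CCA1, at LNK3 (AT3G12320), at PRR9 and at BBX28. Over all 660 nuclear regions of experiment 1 the share was 10.3% (68 regions). The other two were PIF5 and a region on chromosome 3 from 13591900 to 13592098, which held 62 IP tags and 126 control tags and overlapped a prr7-3 region. Of these 6 nuclear regions, PIF5 was the one listed in experiment 1 and in no other list. Its absence from KC and TL means that no region was called there. The lowest regions of those lists held 37 and 38 IP tags.

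PIF4 encodes the PIF best known for growth in warmth and at the end of the night. Its region lay on chromosome 2 from 17886156 to 17886603 in KC and from 17886151 to 17886611 in TL. The summit was inside the gene in both lists, 244 bp from the end with the lower coordinate in KC and 248 bp in TL. PIF4 is the only protein-coding gene within 3000 bp of either summit. The region held 180 IP tags in KC (exact Poisson interval 155 to 208) and 193 in TL (167 to 222), against list medians of 74.5 and 75. Tag enrichment was 11.9 in KC (counting interval 10.3 to 13.8) and 12.4 in TL (10.7 to 14.3). The intervals of KC and TL overlapped, as lists of 1 sample would allow.

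**Figure D1:**
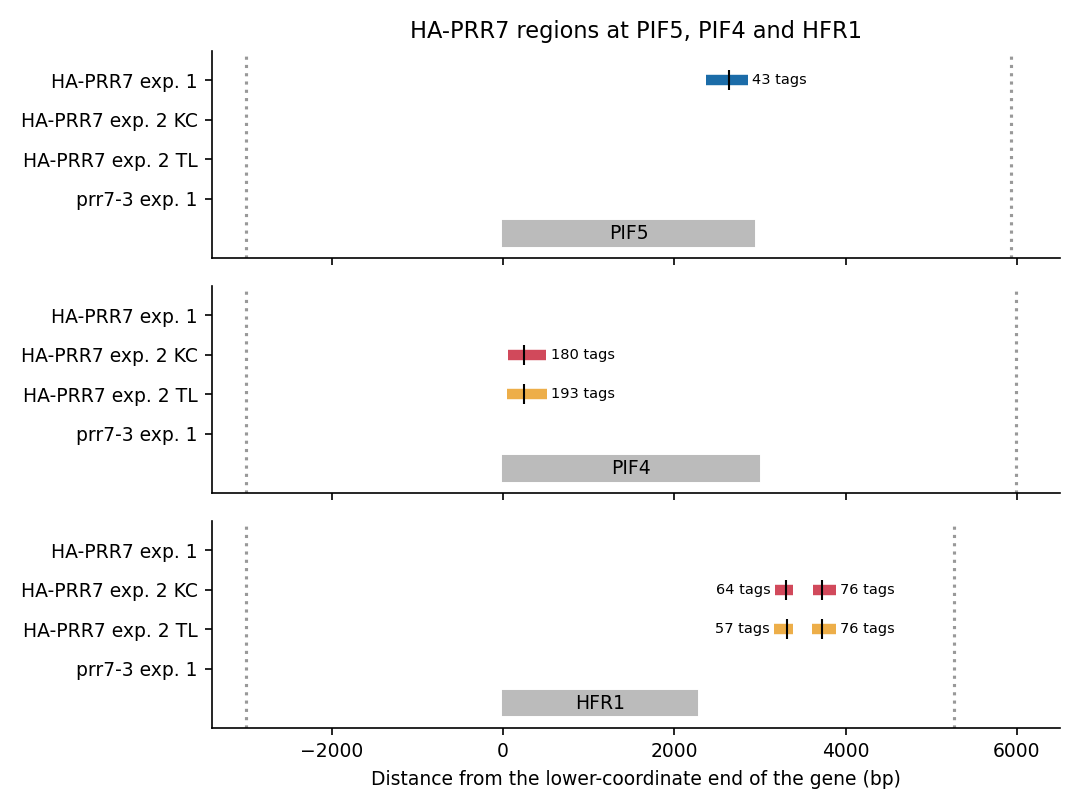
Regions (bars) and their summits (black ticks) at PIF5, PIF4 and HFR1 in the 4 lists, by distance in bp from the lower-coordinate end of each gene (grey box); the number beside a bar is its IP tags and dotted lines mark 3000 bp from the gene. The PIF5 summit is 296 bp from one gene end in experiment 1, the PIF4 summits are 244 and 248 bp from the other end in KC and TL, the HFR1 regions lie outside the gene, and the prr7-3 row is empty.

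The fold enrichment of PIF4 differed between the lists, 27.4 in KC and 10.6 in TL, because of the control. KC had 0 control tags and a control signal of 0, and TL had 1 control tag and a control signal of 2.94 at the summit. IP signal was 27.4 in KC and 31.1 in TL. By fold PIF4 ranked 26 of 380 in KC but 259 of 355 in TL, while by IP tags it ranked 30 and 24, by IP signal 33 and 21, by q value 35 and 26, and by tag enrichment 36 and 27. A single control tag lay in 110 regions of TL, and in 38 of them the control signal was above 1 (1.65 to 4.84). By fold PIF4 in TL thus ranked far lower than by the other 4 measures. These 4 put the region between the percentiles 90.8 and 92.4 in KC and between 92.7 and 94.4 in TL, where 100 is the highest region. They rest on the same IP reads within a list, so their closeness is no separate check of the fold.

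Experiment 1 had no region near PIF4, and the nearest summit was 115 kb away. Most regions of this size recurred. Of the 26 nuclear KC regions with at least 180 IP tags, 18 (69.2%) overlapped a region of experiment 1, and of the 22 nuclear TL regions with at least 193 IP tags, 16 (72.7%) did. Over all nuclear regions the share was 20.4% in KC and 19.8% in TL. PIF4 was thus among the 8 KC and 6 TL regions of this size that were not listed in experiment 1. In prr7-3 the nearest summit was 779 kb away.

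PIF4 and PIF5 were alike in where the region sat, though each was found in another experiment. Both summits lay inside the gene and within 300 bp of 1 of its ends. This cut was not part of the plan and lies just above the 296 bp of PIF5. No other cut is given, so the likeness is a description only. Among all summits inside protein-coding genes, 70.3% of 118 in KC and 72.6% of 113 in TL lay that near an end, against 24.0% of 459 in experiment 1, and 14.8% of 108 in prr7-3. By this cut PIF4 sat where most gene-internal summits of its lists did, and PIF5 where a minority of those of experiment 1 did. Strand was not used here, so the end next to each summit is not named as a start or a stop. The tag enrichments, 11.3 for PIF5 and 11.9 and 12.4 for PIF4, rest on backgrounds of 3.80 tags over 495 bp and of 15.1 and 15.6 tags over 448 and 461 bp, and are given side by side without a comparison.

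HFR1 encodes an atypical bHLH protein that dimerizes with PIFs and keeps them from DNA. It had a pair of regions in each experiment 2 list, both outside the gene on the side of higher coordinates. The nearer lay on chromosome 1 from 468795 to 469002 in KC and from 468784 to 469001 in TL, with summits 1041 and 1049 bp from the gene. The farther lay from 469232 to 469500 in KC and from 469221 to 469500 in TL, with summits 1464 and 1465 bp away. The summits of the pair were 423 bp apart in KC and 416 bp apart in TL. Summits of the same region differed between KC and TL by 8 bp for the nearer and 1 bp for the farther.

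The HFR1 regions were of middling or low size in their lists. The farther region held 76 IP tags in KC and 76 in TL (exact Poisson interval 59.9 to 95.1), close to the list medians. The nearer held 64 in KC (49.3 to 81.7) and 57 in TL (43.2 to 73.9), below the medians. All 4 regions had 0 control tags, so their folds equal their IP signals: 14.5 and 14.4 for the farther, ranks 112 of 380 and 118 of 355, and 12.3 and 10.6 for the nearer, ranks 176 and 260. Tag enrichment was 7.51 and 7.48 for the farther and 6.32 and 5.61 for the nearer, in KC and TL. The intervals of the IP tags of the pair overlapped in each list. The farther region was the higher by all 5 measures in both lists, and the difference was not tested. The nearer region in TL ranked from 222 by tag enrichment to 313 by IP signal.

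**Figure D2:**
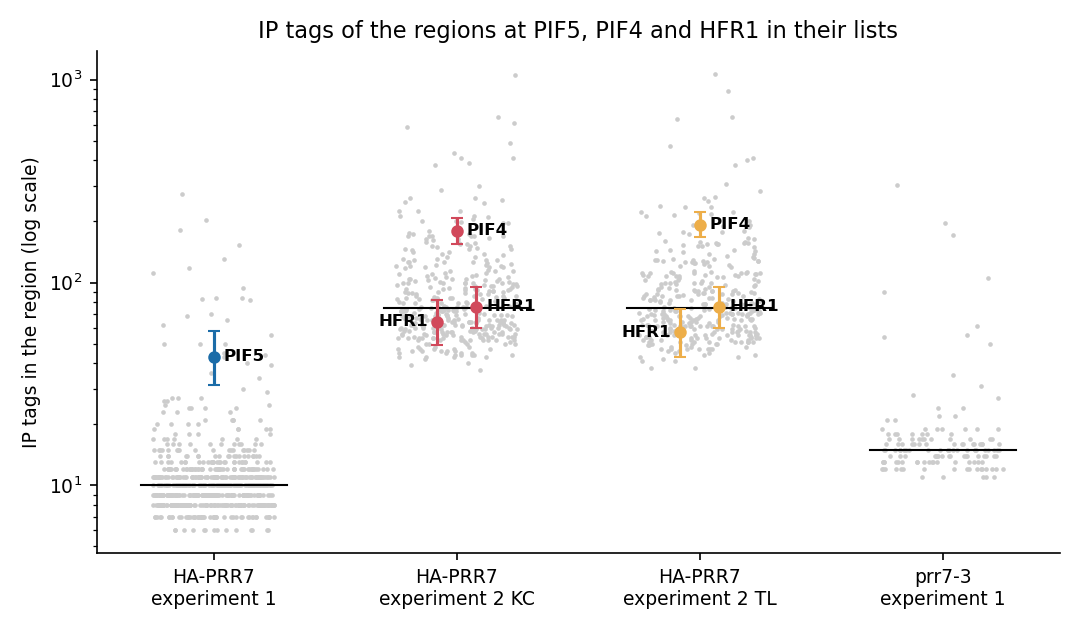
IP tags per region on a log scale in the 4 lists; grey points are all regions, the black line is the list median, and coloured points with bars are the named regions with exact Poisson intervals of 95%, which cover counting error only. PIF5 (43 tags) stands above the experiment 1 median of 10, PIF4 (180 and 193) above the medians of 74.5 and 75, the HFR1 regions at 76 tags close to those medians or below them at 64 and 57, and prr7-3 has no region at these genes.

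The link of these regions to HFR1 depends on distance alone. The nearest protein-coding gene to both is AT1G02350, 897 and 889 bp from the nearer summit and 474 and 473 bp from the farther summit in KC and TL, and AT1G02360 also lies within 3000 bp. The experiment 1 region nearest to HFR1 was outside the limit of 3000 bp. It lay on chromosome 1 from 472767 to 472901, 4953 bp from HFR1, with 9 IP tags, 13 control tags and an 8.12-fold enrichment (rank 482), and it overlapped no HFR1 region of experiment 2. Of the 70 nuclear KC regions with 64 to 76 IP tags, 11 overlapped a region of experiment 1 (15.7%, beside 20.4% of all nuclear KC regions), and of the 109 nuclear TL regions with 57 to 76 IP tags, 12 did (11.01%, beside 19.8% in TL). These shares are a description, and the pair was among the regions with no match.

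**Figure D3:**
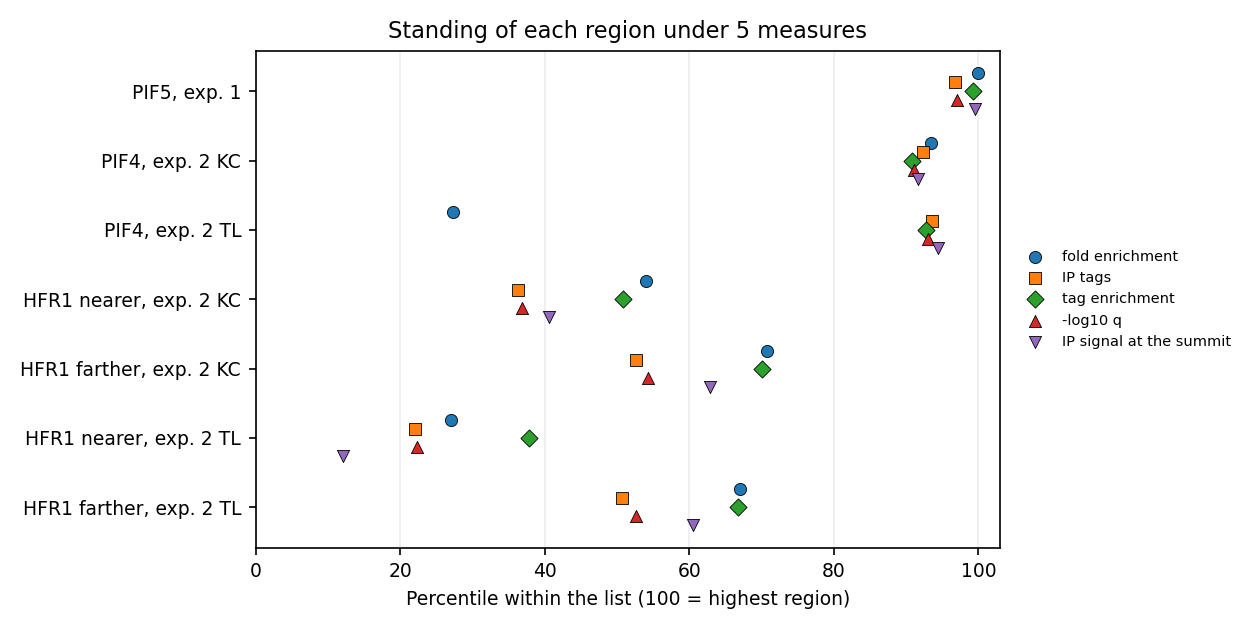
Percentile of each region at PIF5, PIF4 and HFR1 within its own list (100 is the highest region) under 5 measures; nearer and farther name the pair of HFR1 regions by distance from the gene. PIF5 and PIF4 stand at 90.8 or higher under every measure shown, except PIF4 by fold in TL, which is at 27.3, and the HFR1 regions range from 12.1 to 70.8.

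PIF1, PIF3, PIF7 and PIL1 had no region in any list. PIL1, the shade-induced relative of HFR1, came closest in experiment 1, with a summit 10.2 kb away that held 6 IP tags, the lowest count in that list. In experiment 2 its nearest summit was the CCA1 region, 50028 bp away in KC and 50032 bp in TL, which is the highest region of both. PIF7, which acts in shade and is less prone to breakdown in light than other PIFs, had its nearest summits at 126 kb in experiment 1, 160 kb in KC and 45.3 kb in TL. PIF3, the founding PIF, had them at 98.9 kb in experiment 1 and 56.2 kb in both experiment 2 lists. PIF1, which represses seed germination and chlorophyll synthesis in the dark, had its nearest summits 346 kb away in experiment 1 and 379 kb away in KC and TL. These 4 genes stood well outside the limit in all 4 lists, and the nearest prr7-3 summits to them were 114 to 1586 kb away.

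By likeness of pattern, measured as the distance between rank percentiles by fold over the 3 HA-PRR7 lists, PIF4 was closest to PIP1B (5.29 percentile points), which also had no region in experiment 1 and stood at 88.9 in KC and 30.1 in TL. AT3G11890, ANT1 and UBP13 followed with equal distances of 15.2. This order rests on the fold of PIF4 in TL, with its 1 control tag. Ranked by IP tags instead, a choice made after the values were seen, PIP1B stood at place 142, and AT3G55566, AT3G55570 and AT3G55580 were closest at equal distances of 0.597. HFR1 was closest to ABCI21 and CRA1, at equal distances of 2.37, and by IP tags to RUS5, AIRP2 and LHCB4.1 at 0.563. PIF5 shared its pattern with AT3G59070 through the same region, and the next were AT5G47530 and AT5G47540 at equal distances of 0.876, in the same places by IP tags. A region shared by neighbours can thus give each of them the same pattern, but need not. AT1G02350 and AT1G02360, which share the HFR1 regions, were not among the genes closest to HFR1.

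Of 47 other genes of the PIF pathway, 3 had a region in experiment 1 (6.38%), 6 in KC (12.8%), 8 in TL, 6 in both experiment 2 lists (12.8%) and 0 in prr7-3. The last stands beside 1.03% of all genes. The 3 of experiment 1 were also the ones with an overlapping region in KC and TL (6.38%, beside 0.561% of all genes). All are from the group of regulators of PIF proteins or of their activity: PHYB, the red-light receptor that triggers PIF breakdown, HY5, a bZIP factor that opposes PIFs at shared targets, and LUX, part of the evening complex that represses PIF4 and PIF5 in the early night. AT2G18780 lies nearer than PHYB to the higher of its regions, and AT3G46630 nearer than LUX to the LUX region. At PHYB the higher region held 20 IP tags in experiment 1, 120 in KC and 124 in TL. At HY5 the region held 23, 170 and 177 IP tags in these lists. At LUX it held 17, 255 and 263, and it ranked 34 by fold in KC but 302 in TL, where, as at PIF4, there was 1 control tag against 0 in KC. The 20 regulators otherwise had regions in TL alone at COP1 (38 IP tags) and SPA1 (65 IP tags), which form a light-repressed ubiquitin ligase. ELF3, ELF4, the 5 DELLA genes and the other 4 phytochromes had none.

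The group of PIF targets, which takes in chlorophyll synthesis genes beside growth genes, had 0 of 18 in experiment 1 and 2 of 18 in both experiment 2 lists. These were HEMA1 (92 IP tags in KC, 83 in TL) and GUN5 (130 and 129), which encode enzymes of chlorophyll synthesis. The auxin synthesis and response genes of this group (YUC2, YUC8, YUC9, TAA1, IAA19 and IAA29) and the shade gene ATHB2 had no region in any list. Of 9 relatives in the bHLH family, PRE1, a small HLH growth promoter without DNA binding, was the only gene with a region in each experiment 2 list. Its regions were different ones, 56 bp from the gene with 80 IP tags in KC and 1981 bp from it with 53 IP tags in TL, and they did not overlap. With an overlapping region required, PRE1 drops out of the 6. As for the 7 genes, these shares stand beside 5.01% of all genes in experiment 1, 2.90% in KC, 2.71% in TL and 2.34% in both experiment 2 lists, and the group was chosen with earlier results known.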

How the data were processed

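The deposited lists come from anti-HA ChIP-seq of HA-PRR7 (experiments 1 and 2) and prr7-3 (experiment 1). The prr7-3 IP of experiment 2 and the inputs were not analysed here. Per the submitters' processing notes, Bowtie was used, with genome build TAIR10. The sources used here name neither the peak caller nor its control library. Each deposited region line gives IP and control signal at the summit, their ratio (fold enrichment), whole-number tags, tag enrichment and -log10 q, per the file's field names. The fold equalled the ratio of the signals, with the control raised to 1, within 1% in 100% of regions of each list.

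Summits were assigned to every protein-coding gene within 3000 bp, using gene spans of RefSeq assembly TAIR10.1 (Python 3.11.15, pandas 2.3.3), and assignment and overlap (at least 1 bp) were tested on simulated regions. Intervals on tags are exact Poisson (scipy 1.17.1) and cover counting error only. Library totals were not used. IP tags per region ran from 6 to 273 in experiment 1, 37 to 1054 in KC, 38 to 1072 in TL and 11 to 303 in prr7-3. Each list is 1 library, so values have no replicate error and no test was made. Folds of the experiments are on different scales: 86.1% of KC and 88.2% of TL regions rest on 0 or 1 control tags.

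The 7 genes, the 47 pathway genes and the rules were chosen with earlier results of these data known. The rule for names took all 7 genes, pathway genes with regions in both experiments or, up to 3 a group, the best ranked in KC and TL, and the 2 genes most like each bound gene, ties included. COP1, SPA1 and the genes named as having no region were added after their values were seen, as were the regions with as many tags as PIF5 or PIF4. Planned motif counts were not run.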

Additional observations from a re-analysis of the deposited data

How the results depend on the processing

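Of 53 gene counts under other settings, 42 stayed within 1.5 times of the reported count and 11 moved. With summits inside or within 1000 bp, and with the nearest gene only, PIF4 alone kept a region in KC, in TL and in both (1 in place of 2 each), since HFR1 is farther away and has a nearer neighbour. With 5000 bp, experiment 1 had 2 genes in place of 1, as HFR1 was added. With only the 50% of each list with the higher fold kept, TL and both lists had 1 gene, HFR1, because the fold of PIF4 in TL rests on 1 control tag. Genes with an overlapping region in both experiments remained at 0 under every setting but leaving out 1 HA-PRR7 replicate, where the count is of 1 experiment and ranged from 1 to 2. Settings that only narrow the rule could not raise this 0 or that of prr7-3, so they are no check of either. Keeping regions shared with prr7-3 could not raise it either, as the PIF5 region overlapped no region of another list. Such zeros are among the 42 counts that stayed. Of 35 ranks and distances, 25 stayed within 1.5 times. The other 10 were ranks of PIF5, PIF4 in TL and the farther HFR1 region in KC. The distances could not move, since each list has as many peak lines as regions, so only the ranks are a check. G-box and E-box counts were not run, as no sequence was used. No paired analysis was possible because only 1 control IP, that of experiment 1, entered, and no test was made. Regions of experiment 1 held as little as 6 IP tags, and what set that floor was not tested. Folds of experiment 2 are limited by a control of 0 or 1 tags in most regions. Ranked by IP tags, an alternative chosen after seeing the data, PIP1B was at place 142 in place of 1 among the genes most like PIF4.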
